A study of Mus musculus with 24 samples.

Results

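The 284 loci described here are stretches of mRNA with an m6A peak in mouse kidneys given cisplatin alone that lacked a listed peak in nearly all kidneys given berberine before cisplatin, although cisplatin alone had not added the peak by the measure used. They were chosen by the listing of peaks alone. Peaks of any of the 12 kidneys sharing 1 bp or more were merged, which gave 16801 loci. A locus was kept when the number of injury kidneys with a peak exceeded the number of treatment kidneys by at least 3 and exceeded the number of control kidneys by at most 2. The 284 loci made up 1.69% of all loci, and 279 of them lay in 270 protein-coding genes. They are called lost loci below, which says that a peak was not listed and not that the mark was absent.

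Kidney tissue came from male C57BL/6 mice that were 8 weeks old at the start. Controls (n = 4) received vehicle only. The injury group (IG, n = 4) received vehicle and then cisplatin at 20 mg/kg, a platinum drug that damages the renal tubule. The treatment group (TG, n = 4) received berberine, a plant alkaloid, at 20 mg/kg per day for 14 days and then the same dose of cisplatin. All kidneys were taken 72 h after the injection, and each kidney came from its own mouse. RNA fragments carrying m6A were pulled down with an antibody and sequenced (MeRIP-seq), and the peaks of each kidney were deposited as a list. Whole tissue was used, so that fewer cells of a type and less RNA per cell cannot be told apart. RNA levels were not analysed here, and how they relate to the missing peaks was not tested.

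m6A is a methyl group on the adenosine of mRNA, placed by a nuclear writer complex around Mettl3 and Mettl14, removed by Fto and Alkbh5 and bound by reader proteins of the Ythdf and Ythdc families. It is placed within the short sequence RRACH, in which R is A or G and H is A, C or T, and it is dense in long exons and near stop codons. Readers bound to it direct the splicing, translation and decay of the transcript.

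Of the 12 lost loci listed in every control and every IG kidney and in no TG kidney, 5 had a peak centred in coding sequence, and 4 of these, all but Zfp407, are shown. They were picked because the listing of this combination differed most, and were read from the genome build GRCm38 (mm10) on the strand of the gene from 5′ to 3′, with each RRACH match on that strand in capitals. The Fam208b stretch is chr13:3590205-3590384 on the minus strand in exon 10 of 20. The Bicral stretch is chr17:46825197-46825376 on the minus strand in exon 4 of 11. The Txlna stretch is chr4:129630312-129630404 on the minus strand in exon 8 of 10. The Golga3 stretch is chr5:110208440-110208583 on the plus strand in exon 16 of 24. The central 180 bases are shown for Fam208b and Bicral, and the whole locus for Txlna and Golga3.
Fam208b: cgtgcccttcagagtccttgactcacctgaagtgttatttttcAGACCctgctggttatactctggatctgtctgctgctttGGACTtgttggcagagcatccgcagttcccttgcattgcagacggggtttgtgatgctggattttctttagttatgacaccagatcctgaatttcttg
Bicral: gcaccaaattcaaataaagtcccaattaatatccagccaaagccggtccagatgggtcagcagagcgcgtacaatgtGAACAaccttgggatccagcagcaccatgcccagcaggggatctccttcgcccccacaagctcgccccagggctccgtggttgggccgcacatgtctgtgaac
Txlna: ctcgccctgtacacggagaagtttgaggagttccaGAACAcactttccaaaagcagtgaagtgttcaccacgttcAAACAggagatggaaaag
Golga3: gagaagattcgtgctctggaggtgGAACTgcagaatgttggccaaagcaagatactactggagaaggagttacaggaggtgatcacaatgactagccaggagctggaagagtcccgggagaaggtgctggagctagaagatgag

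Each of the 4 stretches held 1 or 2 RRACH matches, and the Fam208b stretch alone among them held GGACT, the form of the motif that is commonest at m6A sites. A match is a description of the letters and not a mapped m6A site. For the shares and densities that follow, only the highest-scoring IG peak of each locus was read. By that reading, 96.1% of all lost loci held at least 1 RRACH match on the strand of the gene and 86.3% on the opposite strand. The same shares were 95.5% and 79.9% at the 3996 retained loci, which met the same conditions in IG and control kidneys but had a peak in at least 3 TG kidneys. Per kb, lost loci held 17.1 matches on the gene strand and 12.03 on the other, against 17.3 and 11.4 at retained loci. GGACT was found on the gene strand in 45.4% of lost and 41.6% of retained loci (1.27 and 1.10 per kb) and on the opposite strand in 38.7% and 39.3% (1.03 and 1.04 per kb). The sequences read were longer at lost loci, with a median of 492 bp against 396 bp, so shares per locus are not on equal footing while densities per kb are. At the 1106 loci of low score that met the same conditions and were not lost (the lowest of 4 score classes), the median was 204 bp, GGACT was found in 31.8% (1.11 per kb) and RRACH matches numbered 17.1 per kb on the gene strand.

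In IvC and TvI terms, the rule took 284 of the 429 loci that had lost at least 3 kidneys from IG to TG. Those 429 were 3.21% of the 13357 loci with a peak in either group. The other 145 had gained at least 3 kidneys from control to IG and are left out here. The rule with IG and TG exchanged found 112 loci. The TG lists were the shortest on average, with 5901 to 6753 peaks against 6745 to 8357 in IG and 8531 to 9579 in control kidneys, and the longest TG list exceeded the shortest IG list by a few peaks. When every list was cut to its 5901 highest-scoring peaks, 117 loci met the rule and 145 met the exchanged rule, so that the excess of lost loci over their mirror image reversed. Of the 284 loci, 80 (28.2%) still met the rule on lists of equal length. The larger number of lost loci therefore cannot be told apart from the shorter TG lists.

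Lost loci were listed in 229 to 261 of 284 cases per IG kidney, in 187 to 225 per control kidney and in 12 to 36 per TG kidney. As shares, 86.6% ± 4.65 (SD, n = 4) were listed in IG, 69.7% ± 6.42 (SD, n = 4) in control and 8.71% ± 3.94 (SD, n = 4) in TG kidneys. Over all 16801 loci the listed share was 43.9% ± 4.02 in IG, 53.1% ± 2.72 in control and 37.8% ± 2.22 in TG kidneys (SD, n = 4 each). Since the rule was built on these listings, the contrast is a description. The 4 TG kidneys differed among themselves, with 36, 19, 12 and 32 lost loci listed in kidneys 1 to 4.

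**Figure D1:**
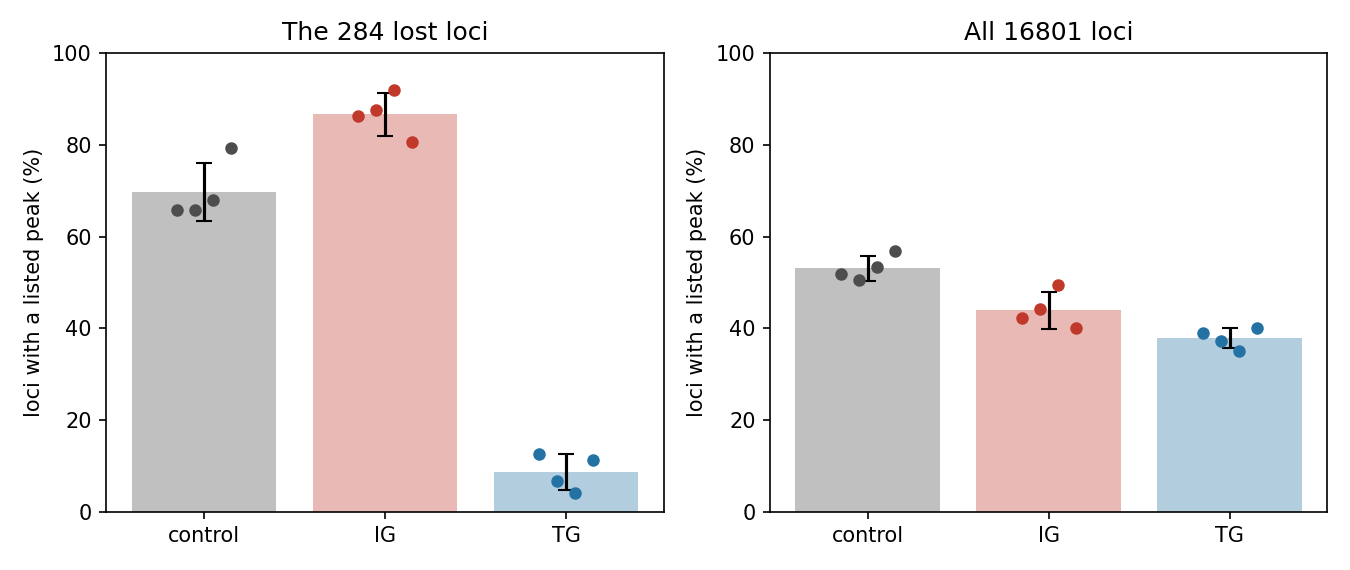
Share of loci with a listed peak (%) for the 284 lost loci (left) and for all 16801 loci (right) in control, IG and TG kidneys. Points are kidneys, bars are means and error bars are SD (n = 4). The lost loci were listed in 8.71% of cases on average in TG kidneys, against 37.8% of all loci.

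The control kidneys, which entered the rule only through its limit of 2 kidneys, divided the lost loci. A control peak was listed in all 4 control kidneys at 98 loci (34.5%), in 3 at 72, in 2 at 70 and in 1 at 44. The rule itself requires at least 1 control kidney. More control than IG kidneys had the peak at 35 loci, as many at 97, and fewer at 152, of which 75 stood at the limit of a difference of 2 kidneys. For these 75 loci, the description as not added by cisplatin rests on that limit. Measured against controls, 147 lost loci (51.8%) had lost at least 3 kidneys in TG, a loss seen at 11.9% of the 15156 loci with a peak in control or TG kidneys. Part of that share is fixed by the choice of loci with few TG kidneys.

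No TG kidney had a peak at 185 lost loci (65.1%), and 1 did at 99. All 4 IG kidneys had the peak at 132 loci and 3 did at 152. The commonest combination was 4 control, 4 IG and 1 TG kidney (51 loci), followed by 1, 3 and 0 (44 loci), 2, 3 and 0 (39 loci), 4, 3 and 0 (35 loci) and 3, 3 and 0 (34 loci). Just inside the rule stood 152 loci with 3 IG and 0 TG kidneys and 99 with 4 and 1, whose median mean IG scores were 38.6 and 56.1. Just outside stood 277 loci with 3 and 1 and 233 with 4 and 2, at 49.5 and 81.3. Scores are the deposited peak scores, 10 times the negative log10 of the MACS p-value, and the lowest score listed was 13.02.

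Loci at the upper end of the score scale were also found on both sides of that boundary. In Golgb1, which codes for the Golgi tether giantin, a peak in exon 13 of 21 (chr16:36917909-36919796) had 3 IG kidneys and 1 TG kidney, all at 3100. At chr19:60764032-60764233 in Eif3a, a subunit of a translation initiation factor, all 4 IG kidneys and TG kidneys 2 and 4 were at 3100. A second Eif3a peak at chr19:60768708-60768892 had all 4 IG kidneys and TG kidneys 2 and 3 at 3100. The highest locus with 3 and 1 other than Golgb1 lay in Gm2000 (chr1:156366040-156366484), with IG scores of 179, 147 and 3100 and a TG score of 97.7. The exact value 3100 recurred in 1086 of 91013 peaks and 79 peaks scored higher, so peaks at 3100 cannot be ranked among themselves.

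Lost loci carried low peak scores. Their median score was 50.8, 50.9, 51.5 and 51.6 in control kidneys 1 to 4 and 39.5, 37.3, 41.6 and 32.6 in IG kidneys 1 to 4. Retained loci had medians of 192, 181, 189 and 231 in control and 161, 165, 171 and 146 in IG kidneys. The groups of values did not overlap, and lost loci were lower in 8 of 8 kidneys, by a mean of 135 ± 19.7 (SD, n = 8). A peak is listed because its score passed a threshold and the rule used the listing in these kidneys, so this difference is a description with no p given.

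The test was read over loci listed in all 4 control and all 4 IG kidneys, where the choice between lost and retained rested on TG kidneys only. These were 63 lost and 2832 retained loci. Median scores of the 63 were 95.8, 87.6, 76.9 and 86.6 in control kidneys, where the 2832 stood at 238, 235, 242 and 297. In IG kidneys they were 60.1, 53.7, 58.4 and 44.4 against 218, 226, 231 and 198. The difference was −165 ± 21.3 (SD, n = 8) and again negative in 8 of 8 kidneys (exact two-sided permutation test that flips signs over kidneys, p = 0.0078125, the smallest p the design allows). Within control or IG kidneys alone, 4 values are too few for this test to pass 0.05. The kidneys were scored at the same loci, so the 8 differences are not independent, and the p does not speak for other loci. Loci without a listed peak in most TG kidneys were called lost, and a peak is listed when its score passes a threshold. The choice was thus itself made on scores, though in TG kidneys, and the difference is a description of these loci. At 47 of the 63 lost loci (74.6%) the mean IG score was below the mean control score, against 52.9% of the retained loci. Scores of different lists are not set to a common depth, and the depth of each list is unknown. Every IG kidney was below every control kidney at 9 of the 63 (14.3%) and at 12.9% of retained loci. None of the 63 had every IG kidney above every control kidney, as 283 of the 2832 retained loci did.

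**Figure D2:**
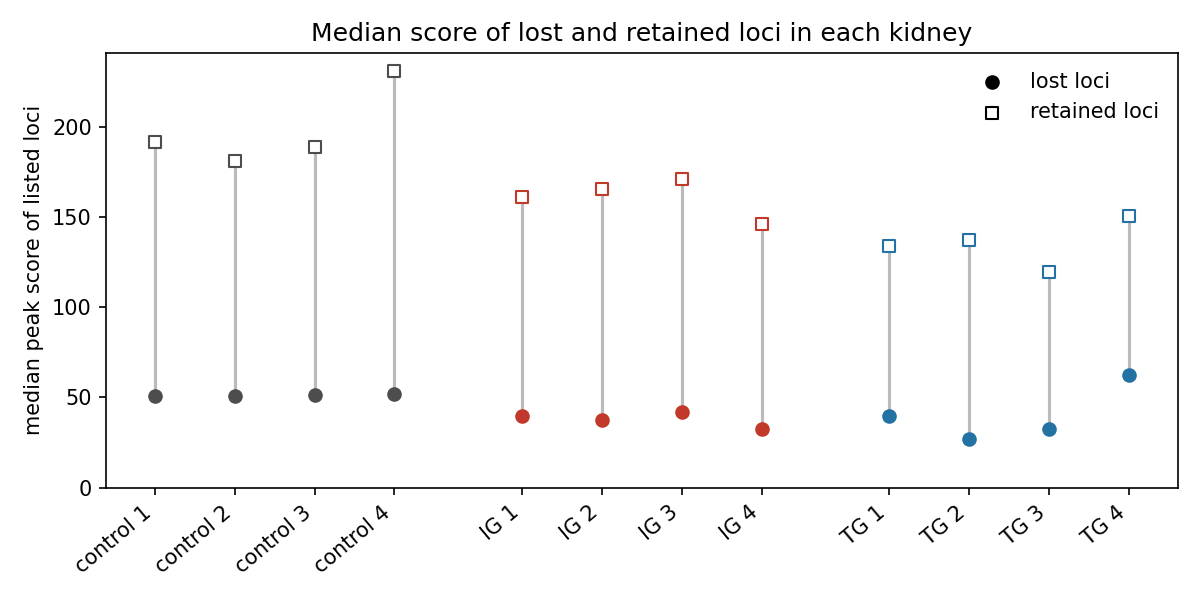
Median peak score (10 times negative log10 of the p-value) of lost loci (filled circles) and retained loci (open squares) in each control, IG and TG kidney, over the loci listed in that kidney. Lost loci lay between 32.6 and 51.6 and retained loci between 146 and 231 in the control and IG kidneys. The TG circles rest on 12 to 36 loci per kidney.

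The share of lost loci was also read across the score range. The 5170 loci with at least 3 IG kidneys and at most 2 more IG than control kidneys could have been lost by the rule, and 5.49% were. Divided into 4 equal classes by mean IG score, the lowest class (14.8 to 58.9) had 187 loci lost (14.5%) and 51.1% retained. The next class, up to 126, held 55 lost loci (4.26%) and the one up to 326 held 35 (2.71%). In the class above 326, 7 loci (0.541%) were lost and 94.9% were retained. The lowest class thus held 65.8% of all lost loci.

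**Figure D3:**
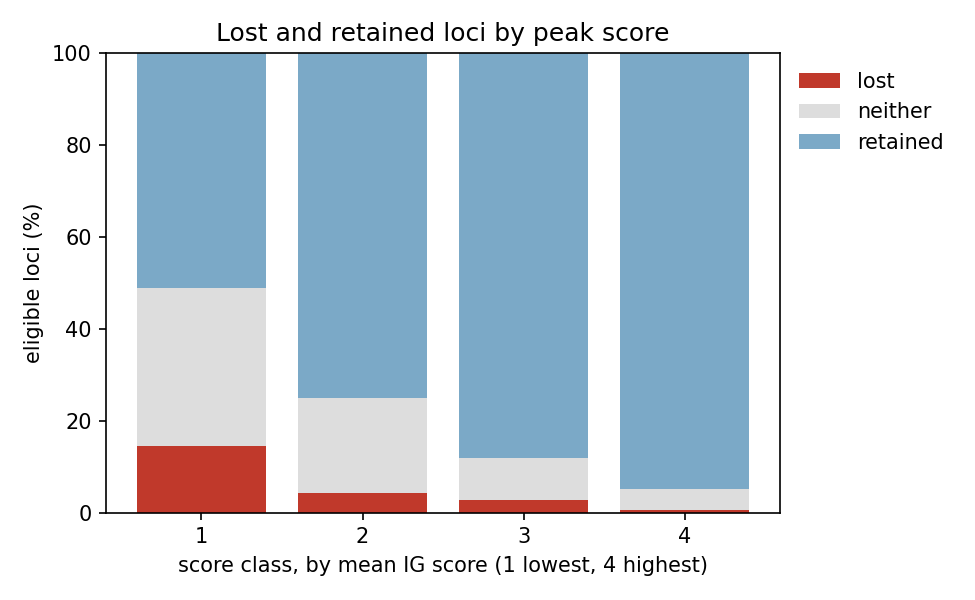
Lost (red), retained (blue) and other (grey) loci as a share (%) of the eligible loci in each of 4 classes of mean IG score, from lowest (1) to highest (4). The lost share was 14.5% in class 1 and 0.541% in class 4, and the retained share 51.1% and 94.9%.

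Along the mRNA, 138 of the 271 lost loci with an assigned segment had their midpoint in the CDS (50.9%), 49 in the 3′ UTR (18.1%), 40 within 200 nt of the start codon (14.8%), 39 within 200 nt of the stop codon (14.4%) and 5 in the 5′ UTR (1.85%). Retained loci had 65.5% in the CDS and 12.1% in the 3′ UTR, and all loci had 57.9% and 13.2%. Among the 1106 eligible loci of the lowest score class that were not lost, 63.2% lay in the CDS and 9.91% in the 3′ UTR. The lower CDS share and higher 3′ UTR share of lost loci thus stood beside loci of low score as well, and no test was made. When a locus that held a codon was given to that codon, the CDS share of lost loci was 43.5% and the 3′ UTR share 2.95%, so the 3′ UTR share depends on how long loci are assigned. Lost loci were 548 bp wide in the median, against 429 bp for retained and 289 bp for all loci. The last exon held 32.1% of lost and 27.6% of retained loci.

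**Figure D4:**
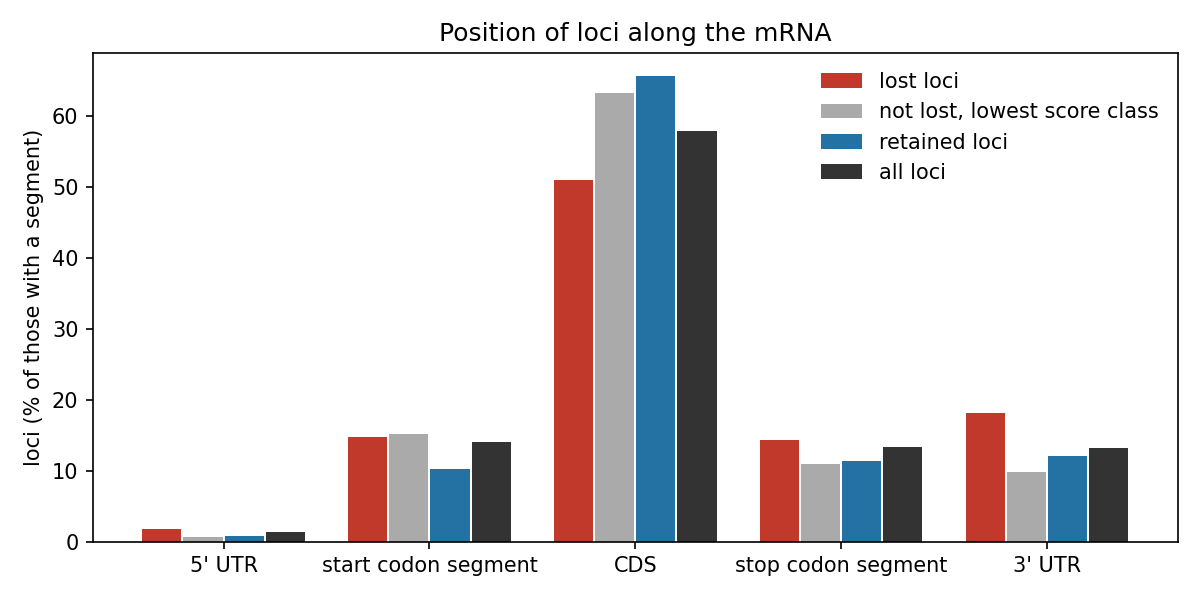
Share (%) of loci by the mRNA segment that holds the locus midpoint, for lost loci, eligible loci of the lowest score class that were not lost, retained loci and all loci. The CDS held 50.9% of lost and 65.5% of retained loci, the 3′ UTR 18.1% and 12.1%. Codon segments reach 200 nt to each side.

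The 12 loci with a peak in all control and IG kidneys and in no TG kidney lay in genes of several functions. Rnf185 codes for a ubiquitin ligase of the endoplasmic reticulum, and its peak lay in the last exon, exon 8, in the 3′ UTR (chr11:3415973-3418087). Control kidneys 1 to 4 scored 129, 162, 125 and 184 and IG kidneys 19.1, 57.6, 71.0 and 104. Each IG kidney was below each control kidney. Atg101 codes for a subunit of the complex that starts autophagy, with its peak at the stop codon (chr15:101290268-101290934). Its control scores were 101, 103, 47.7 and 39.8 and its IG scores 86.4, 107, 71.8 and 25.9, which overlap throughout.

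Bicral codes for a subunit of a SWI/SNF chromatin remodelling complex and was listed at chr17:46824450-46826123. Scores were 334, 222, 239 and 311 in control and 103, 253, 48.8 and 24.9 in IG kidneys, with only IG kidney 2 inside the control range. The zinc finger gene Zfp407 had a peak in the CDS part of its last exon (chr18:84208347-84210081). Its control kidneys lay between 48.3 and 60.6 and its IG kidneys between 16.3 and 28.2, with no overlap. Fam208b (chr13:3589941-3590648) scored 95.8, 44.8, 29.7 and 45.1 in control and 93.7, 63.3, 77.1 and 212 in IG kidneys. Here the overlapping ranges leaned the other way, with a higher mean in IG (112 against 53.8).

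Spast codes for spastin, an ATPase that severs microtubules, and its 3′ UTR peak at chr17:74388190-74388976 scored 124, 74.0, 61.6 and 86.0 in control and 240, 78.6, 65.4 and 50.03 in IG kidneys. Txlna, a partner of syntaxins in vesicle traffic, scored 107, 165, 97.5 and 25.1 in control and 33.8, 47.4, 44.3 and 76.8 in IG kidneys. Control kidneys 1 to 3 stood above every IG kidney for Txlna, and control kidney 4 stood below every one. The Golgi protein gene Golga3 stood near the lower limit at its locus in exon 16, with 40.2, 32.4, 15.4 and 42.2 in control and 14.9, 15.1, 27.0 and 20.5 in IG kidneys. Neo1, the receptor neogenin, had a peak at its stop codon (chr9:58878028-58878164) with 54.8, 38.0, 68.5 and 15.1 in control and 41.1, 29.2, 65.0 and 26.6 in IG kidneys.

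Gvin1, one of the very large interferon-inducible GTPases, had the highest IG mean of the 12 (265) and scored 432, 255.8, 340 and 1184 in control and 525, 25.9, 249 and 260 in IG kidneys at its start codon (chr7:106175027-106175166). The family has closely similar copies between which reads can be divided, so the Gvin1 value is uncertain. Grik5, a kainate receptor subunit, scored 102, 23.7, 17.0 and 58.8 in control and 49.99, 69.0, 16.8 and 13.8 in IG kidneys at its stop codon (chr7:25009851-25010662). Zswim4 (chr8:84210942-84212805) scored 46.2, 124, 156 and 138 in control and 57.5, 53.7, 37.0 and 14.5 in IG kidneys. In 2 of the 12 loci, Rnf185 and Zfp407, the IG and control scores did not overlap, and in both the IG scores were the lower. Every IG score was also below every control score at 12.9% of the 2832 retained loci listed in all control and IG kidneys. On lists of equal length, 9 of the 12 kept a difference of at least 3 kidneys between IG and TG, while Grik5 kept 2 and Golga3 and Zfp407 kept 1.

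**Figure D5:**
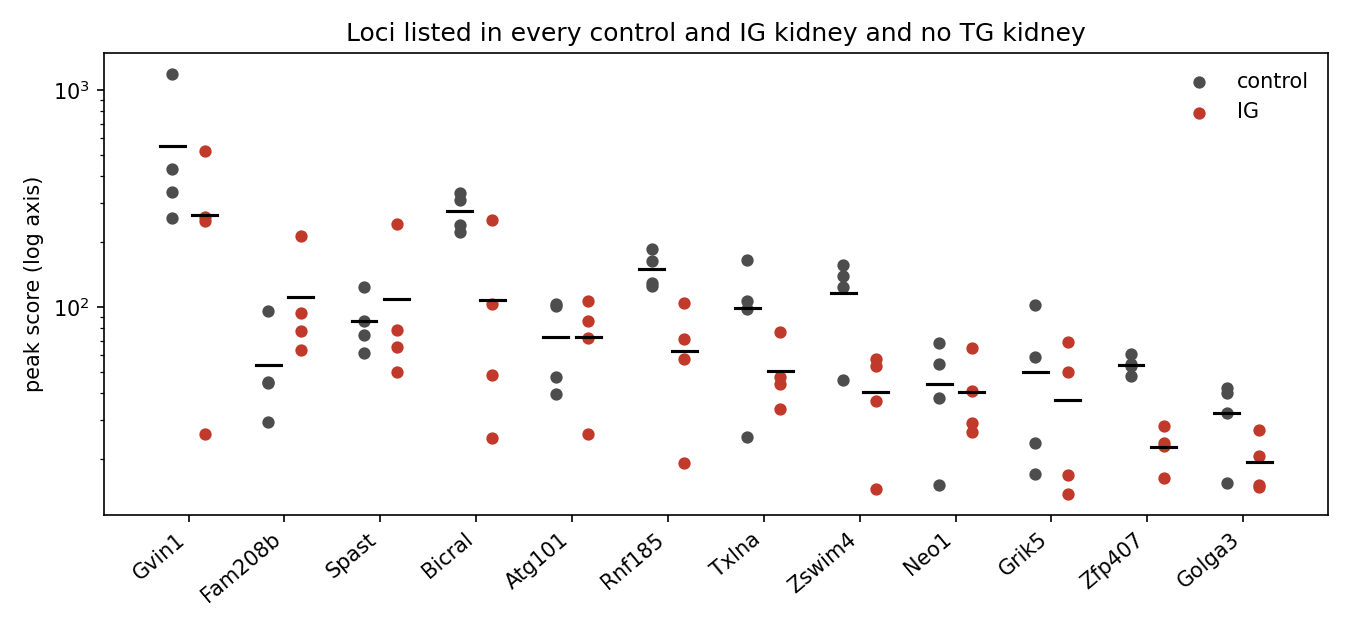
Peak scores (log axis) of the 12 loci listed in all 4 control (grey) and all 4 IG (red) kidneys and in no TG kidney, ordered by mean IG score from left to right. Points are kidneys and black bars are means (n = 4). Gvin1 has the highest IG mean (265) and Golga3 the lowest (19.4), and control and IG points overlap in all but Rnf185 and Zfp407.

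The 7 lost loci with a mean IG score above 326 lay in Luc7l3, Gm42226, Dido1, Trak2, Phrf1, Klf5 and Trib1, and 3 of them (Luc7l3, Trak2 and Klf5) kept a peak in 1 TG kidney. Luc7l3, a component of the splicing machinery, was at exactly 3100 in all control and IG kidneys and in TG kidney 1, and was listed in no other TG kidney (chr11:94296884-94297167, exon 8 of 11). It was the only lost locus with a peak at exactly that value. Gm42226, a predicted gene outside the protein-coding annotation used, had 3200, 3137 and 1954 in IG kidneys 1, 3 and 4 and 16.5, 52.0 and 24.3 in control kidneys 1, 3 and 4 (chr5:23700651-23703360). IG kidney 2, control kidney 2 and all TG kidneys lacked it. In Dido1, a chromatin-associated gene, the exon 3 locus (chr2:180688711-180690161) scored 777, 547, 342 and 648 in IG kidneys and 26.0 and 122 in control kidneys 1 and 4. A neighbouring Dido1 locus at chr2:180687476-180687797 was listed in 4 control, 0 IG and 4 TG kidneys.

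Trak2, an adaptor that links mitochondria to kinesin motors, scored 359, 601, 737 and 364 in IG kidneys, 918 and 24.8 in control kidneys 2 and 4 and 421 in TG kidney 1 (3′ UTR, chr1:58900990-58904182). Phrf1, a PHD and RING finger protein, had a CDS locus at chr7:141258032-141260707 with 985, 263, 971 and 944 in control and 157, 1069 and 312 in IG kidneys 1, 2 and 4. The transcription factor Klf5 scored 932, 154, 728 and 89.4 in IG and 39.8, 117, 87.1 and 55.4 in control kidneys at its stop codon (chr14:99313151-99313409), and 356 in TG kidney 4. Its IG mean was 476 ± 418 (SD, n = 4) against 74.9 ± 34.5 in control, and the ranges overlapped. Trib1, a pseudokinase, had a 3′ UTR locus (chr15:59654236-59656961) with 191, 572, 240 and 378 in control and 384, 129 and 633 in IG kidneys 1, 3 and 4. Cgn, the tight junction protein cingulin, scored 340, 274 and 342 in IG kidneys 1, 2 and 3 and 94.1, 165 and 81.3 in control kidneys 2, 3 and 4 (chr3:94773497-94773645). Listing in IG and control kidneys was thus met at very different scores, higher in IG for Gm42226, Dido1 and Cgn and over the same range for Trib1.

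The highest-scoring members of the remaining combinations had lower values. Zhx3, a zinc finger and homeobox gene, scored 47.5 to 377 in 4 IG and 123 to 224 in 3 control kidneys. 1700047I17Rik2 scored 83.9 to 390 in 4 IG and 65.3 to 406 in 3 control kidneys, with 29.7 in TG kidney 4. Dazap2 was listed at 371, 164 and 140 in IG kidneys 1, 2 and 3 and at 18.3 in a single control kidney. Arpp19, an inhibitor of the phosphatase PP2A, was listed at 484, 93.1 and 15.5 in IG kidneys 1, 2 and 4 and at 28.9 in a single control kidney. Cebpz scored 44.6 to 238 in 4 IG and 18.4 to 86.7 in 3 control kidneys, and Sh3rf1, a scaffold of JNK signalling, 18.97 to 120 in 4 IG and 32.7 and 38.5 in control kidneys 2 and 4. A locus that overlapped no exon of a protein-coding gene on its strand in the annotations used (chr3:150072590-150073620) was also named. It was listed at 61.6, 13.8 and 303 in 3 IG kidneys and at 477 and 21.1 in 2 control kidneys. On lists of equal length, Arpp19 and this chr3 locus kept a difference of 2 kidneys between IG and TG, and the others named in this paragraph at least 3.

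In 9 genes, 2 loci were lost. On lists of equal length, both loci kept a difference of at least 3 kidneys between IG and TG in Neo1, Igbp1 and Nhs, 1 did in Snx30 and Dennd5b, and neither did in Golga3, Secisbp2, Taok1 and Polk. Golga3 had a second locus in exon 14 (chr5:110205777-110205871) with 24.2 to 76.0 in IG, 35.1 to 98.7 in control and 32.6 in TG kidney 3. Neo1 had a second locus in its 3′ UTR, with 28.3 to 85.9 in 4 IG and 31.4 to 63.5 in 3 control kidneys, and 43.8 in TG kidney 2. Igbp1, a regulator of PP2A, had loci in exons 5 and 6 (chrX:100505940-100506052 and chrX:100515557-100516125), each listed in control kidneys 2, 3 and 4, all 4 IG kidneys and no TG kidney. Secisbp2, which acts in selenoprotein synthesis, had loci in exons 11 and 12 of 17 with 57.9 to 127 and 52.95 to 61.8 in control kidneys. The IG values there were 16.6 to 82.2 and 21.6 to 56.1, and the exon 11 locus had a TG peak of 47.9 in kidney 1.

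Snx30, a sorting nexin, had loci in exons 6 and 7 of 9, both in 4 control kidneys, in IG kidneys 1, 2 and 3 and in no TG kidney, with no score above 52.5. Taok1, a kinase of the MAP kinase cascade, had loci in exons 15 and 16 of 20 with scores up to 98.2, and TG kidney 4 held the exon 15 locus at 22.1. Polk, the DNA polymerase kappa that copies past damaged bases, had loci in exon 3 and at the start codon in exon 2. They scored 25.2 to 86.3 and 16.6 to 39.4 in 3 IG kidneys each and 13.3 to 16.9 in control kidneys. Dennd5b had a CDS locus with 17.6 to 35.6 and a 3′ UTR locus with 31.1 to 67.8 in 3 IG kidneys each. Nhs had loci at its start codon, 56.8 to 279, and its stop codon, 34.3 to 70.2, again in 3 IG kidneys each. Loci of 1 gene share their transcript and are not separate observations, and the highest score among the 9 pairs was 279, in Nhs.

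Gene lists were fixed sets of symbols and do not hold every gene of a function, so that Bicral, Dido1, Luc7l3 and Taok1, for example, are in none of them. Of the 30 loci named from lists, 15 kept a difference of at least 3 kidneys between IG and TG on lists of equal length. Those that did not were Slc19a3, Slc6a15, Rnf213, Map3k11, Ppp2r3a, Ppp4r3a, Zfp217, Zfp516, Zfp59, Hnrnpd, Rbms3, Gbp9, Col27a1 and both loci of Polk.

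The list of ubiquitin ligases and deubiquitinases held 10 lost loci of 394 (2.54%, beside 1.69% of all loci). They lay in Huwe1, Rnf185, Rnf213, Rnf217, Trim12a, Ube2d1, Ube2l3, Usp15, Usp36 and Usp7. In TvI, 14 loci of the list had lost at least 3 kidneys and 2 had gained as many, beside 429 lost and 171 gained over all loci. Rnf213, a giant ligase, scored 39.5, 23.3, 754 and 99.7 in IG, 59.5, 349 and 200 in control kidneys 1, 2 and 4 and 37.7 in TG kidney 3, so IG kidney 3 carried its mean. Huwe1, a ligase with many nuclear targets, scored 69.9, 286, 56.8 and 57.3 in IG, 232, 186 and 270 in control kidneys 2, 3 and 4 and 15.2 in TG kidney 1. Rnf217 scored 29.2, 503, 45.9 and 47.5 in IG, 32.0 and 32.5 in control kidneys 1 and 4 and 27.8 in TG kidney 1. All but IG kidney 2 were of the same low order.

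The chromatin regulator list held 9 lost loci of 533 (1.69%), in Asxl2, Brd3, Ep300, Hdac4, Ino80d, Kdm5a, Phf12, Smarca2 and Tet3. In TvI, 13 loci of the list had lost and 6 had gained at least 3 kidneys, beside 429 and 171 of all 16801 loci. Phf12, a subunit of a histone deacetylase complex, scored 577, 279, 714 and 294 in control, 194, 248, 215 and 200 in IG and 176 in TG kidney 1. Its IG scores all lay under its control scores. Tet3, a DNA demethylase, scored 243, 202, 316 and 473 in control, 60.6, 284, 146 and 44.4 in IG and 435 in TG kidney 2. The acetyltransferase gene Ep300 scored 229, 87.6, 77.6 and 190 in control, 112, 98.0, 90.1 and 222 in IG and 74.9 in TG kidney 4. The histone demethylase gene Kdm5a scored 208, 32.1, 116 and 252 in IG, 15.2 and 178 in control kidneys 3 and 4 and 238 in TG kidney 4. The single TG peaks of Tet3 and Kdm5a were as high as their highest peaks in other groups or close to them, so these loci were not weak in the TG kidney that held them.

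The list of splicing factors and RNA-binding proteins held 7 lost loci of 287 (2.44%), in Ddx18, Ddx42, Hnrnpd, Rbm20, Rbm39, Rbms2 and Rbms3. The RNA helicase gene Ddx42 scored 417, 281, 48.9 and 118 in IG, 72.1 and 24.5 in control kidneys 1 and 3 and 115 in TG kidney 4. Rbms3 scored 57.1, 22.9, 162 and 24.9 in IG and 215 in TG kidney 4, its highest. Hnrnpd, which binds AU-rich elements, scored 16.2 to 84.2 in 3 IG kidneys and 55.2 in 1 control kidney, and Ddx18 20.03 to 61.9 in 4 IG kidneys. Zinc finger proteins held 9 of 553 (1.63%). Besides Zfp407, Zfhx3 scored 304, 219 and 46.0 in IG kidneys 2, 3 and 4 and 15.1 to 145 in control kidneys, Zfp217 22.5 to 105 in IG and 32.8 in TG kidney 1, Zfp516 15.9 to 82.0 in IG and Zfp59 28.2 to 42.0 in IG kidneys.

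The list of signalling kinases and phosphatases held 5 of 346 (1.45%). Map3k11, a kinase upstream of JNK, scored 350, 230, 367 and 415 in control, 291, 380, 15.5 and 47.2 in IG and 106 in TG kidney 4, so that IG kidneys 3 and 4 stood far under IG kidneys 1 and 2. Pik3r4, a subunit of the class III PI3 kinase complex, scored 32.9 to 109 in 4 IG kidneys and was listed in no TG kidney. The PP2A subunit gene Ppp2r3a scored 16.7 to 112 and the PP4 subunit gene Ppp4r3a 25.8 to 55.1 in 3 IG kidneys each. Solute carriers held 2 lost loci of 201 (0.995%). Slc6a15, a transporter of neutral amino acids, scored 870, 893, 414 and 776 in control and 16.0, 24.3 and 81.6 in IG kidneys 1, 3 and 4 at its 5′ UTR (chr10:103367808-103368153). Each IG score was under each control score. Slc19a3, a thiamine transporter, scored 232, 262 and 42.7 in control kidneys 1, 2 and 3 and 27.7, 13.1, 31.1 and 66.7 in IG kidneys.

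Interferon-inducible genes held 3 of 102 (2.94%). Iigp1, an immunity-related GTPase, scored 109, 174 and 224 in IG kidneys 1, 3 and 4 and 107, 38.2 and 84.5 in control kidneys 1, 2 and 4. Gbp9, a guanylate-binding protein, scored 19.8 to 67.5 in IG, 32.5 and 18.5 in control kidneys 2 and 4 and 33.5 in TG kidney 4, and it too belongs to a family of similar copies. Collagens, laminins and integrins held 2 of 74 (2.70%), with Col27a1 at 333, 21.1 and 136 and Col18a1 at 35.8, 63.4 and 21.6 in IG kidneys 2, 3 and 4. Of p53 targets, the 2 loci of Polk were lost among 20. Celsr1, a cadherin of planar cell polarity, was the only lost locus among 70 of the Wnt and planar polarity list, with 84.9, 181, 66.6 and 429 in control, 58.7, 54.8, 34.3 and 19.6 in IG and 123 in TG kidney 1. That TG peak exceeded each of the 4 IG peaks.

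No lost locus fell among the 48 loci of writers, erasers and readers of m6A, the 39 of fatty acid oxidation and peroxisome genes, the 16 of NRF2 targets or the 36 of tubular injury markers. Nor did any fall among the 91 loci of 80 marker genes of kidney cell types. The proximal tubule markers could not check the tissue label, since 12 of 15, among them Lrp2, Slc34a1 and Hnf4a, had no peak in any kidney. A peak in at least 1 kidney was listed for 7 of 8 podocyte, 7 of 11 collecting duct, 6 of 13 thick limb and distal tubule, 6 of 11 endothelial, 6 of 12 leukocyte and 5 of 10 fibroblast and smooth muscle markers. Loci that had lost and gained at least 3 kidneys in TvI numbered 429 and 171 of all 16801. They numbered 11 and 5 of 553 for zinc finger proteins and 11 and 5 of 287 for splicing factors and RNA-binding proteins. Kinases and phosphatases had 7 and 1 of 346, solute carriers 6 and 1 of 201 and interferon-inducible genes 3 and 3 of 102. Collagens, laminins and integrins had 3 and 1 of 74, the Wnt list 2 and 1 of 70 and p53 targets 2 and 0 of 20. Tubular injury markers had 1 and 0 of 36, thick limb and distal tubule markers 1 and 0 of 15 and leukocyte markers 0 and 1 of 8. Apart from these and from the ubiquitin and chromatin lists, no list had a locus in either direction. Low counts per list, of 0 to 10 lost loci, stand beside an overall share of 1.69%, and nothing particular to a list was read from them.

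Other peaks of the same genes were counted next. Of the 270 genes, 61 had no further locus and 209 had 1 or more, 716 in all. A further locus was listed in at least 1 TG kidney in 168 genes and in at least 3 TG kidneys in 115. Of the further loci with at least 3 IG kidneys, 80.3% had at least 3 TG kidneys, against 77.4% of the loci of all other genes. Neither set holds a lost locus by definition, so these shares are shaped by the choice and are a description. The further loci were listed in 46.1% ± 6.27 of cases in IG and 40.05% ± 2.44 in TG kidneys, against 43.1% ± 3.94 and 38.3% ± 2.18 for loci of other genes (SD, n = 4 each). With lists of equal length the TG share of the further loci was 0.384 percentage points above that in IG. Of the 716 further loci, 4 (0.559%) had lost at least 3 kidneys from IG to TG and 5 (0.698%) had gained as many. The shares were 0.893% and 1.03% of the 15558 loci of other genes. Since lost loci were left out, the losses counted are only those with at least 3 more IG than control kidneys. The second lost loci of the 9 genes with 2 are not among them. The lost shares therefore cannot show whether losses gather in these genes. The 5 gained loci lay in Dnajb12, 1700047I17Rik2, Rbm20, Dido1 and Cgn. In 1700047I17Rik2 and Dido1 that locus had 4 control, 0 IG and 4 TG kidneys.

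At the 185 lost loci with no TG peak, the nearest TG peak was within 100 bp at 0 and within 1000 bp at 13 (7.03%), and the median distance was 17768 bp. At the 6552 other loci with no TG peak, it was within 1000 bp at 6.00%, and the median distance was 20876 bp. When peaks within 100 bp were joined as well, all 284 loci still met the rule. Lost loci were found on all chromosomes with loci, from 25 on chromosome 1 (2.18% of its loci), 21 on chromosome 10 (2.40%) and 21 on chromosome 2 (1.57%) to 6 on chromosome 18 (1.04%) and 1 of 25 on the Y chromosome.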

How the data were processed

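m6A peaks were analysed in 12 kidneys, 4 per group, with groups and replicate numbers as the labels give them. Reads were trimmed by the authors (cutadapt 1.9.3, per the submitters' processing notes) and aligned to mm10 (HISAT2 2.0.4). Peaks were called per kidney with MACS, and the authors deposited those on mRNA with a score, 10 times the negative log10 of the p-value. The MACS version and threshold are not given in the sources used here. The lists hold no counts, so depth is unknown and precision rests on the number of kidneys. Input libraries and RNA-seq were not analysed here.

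Peaks were joined into loci regardless of strand. Protein-coding genes came from GENCODE M21 by exon overlap, and segments from the locus midpoint. At 5 loci no exon of such a gene lay on the strand of the locus. Retained loci had at least 3 IG and 3 TG kidneys and at most 2 more IG than control kidneys. Scores were compared within kidneys by a sign-flip test over all sign combinations (Python 3.11.15, numpy 2.4.6, scipy 1.17.1), and the rule and the test were tested on simulated data. Loci and gene lists were chosen with earlier results of these data known. The patterns for collagen and Kat genes were narrowed after matching other genes. Named loci were the 12 with 4 control, 4 IG and 0 TG kidneys, the 2 of highest mean IG score in each other combination, genes with 2 lost loci, up to 4 per gene list, and the 2 highest loci of each class just outside the rule. Alternatives were list length, score minimum, joining, strand, segment rules and leaving out each kidney.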

Additional observations from a re-analysis of the deposited data

Results flagged for a closer look

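Of 102 groups of 4 kidneys examined, 12 had a kidney whose gap to the nearest other, divided by the range of the group, exceeded Dixon's critical value for 4 samples, where chance flags about 1 in 20 groups. Control kidney 4 listed 225 lost loci, against 187 to 193 in the other controls, and it also had the longest list. In IG, the kidney apart from the others was at 503 for Rnf217, 754 for Rnf213, 222 for Ep300, 240 for Spast, 76.0 for Golga3 exon 14, 55.1 for Igbp1 at chrX:100515557-100516125 and 286 for Huwe1, in each case the highest of its group. In control kidneys, the highest was apart at 59.4 for Zfp516, and the lowest at 57.9 for Secisbp2 exon 11, 263 for Phrf1 and 2771 for Eif3a at chr19:60764032-60764233, where the others were all at 3100, so that any other value would have been flagged.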

How the results depend on the processing

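The number of lost loci was 284. It was 117 with all lists cut to equal length, 158 with only peaks that reached the median score (71.3), 158 with only IG and TG lists cut (an alternative chosen after seeing the data) and 33 with 4 IG against 0 TG kidneys. Leaving out each kidney gave 201 to 327. With 1 kidney left out, the limits of 3 and 2 kidneys were kept as shares of 4 kidneys. Of the 284 loci themselves, 148 to 174 (52.1% to 61.3%) still met the rule without 1 IG kidney. They were fewest without IG kidney 3, which listed the most lost loci (261). Without 1 TG kidney 197 to 221 met it, and without 1 control kidney 251 to 262. The 152 loci with 3 IG and 0 TG kidneys must fail when a listed IG kidney is left out. The 99 loci with 4 and 1 must fail when an unlisted TG kidney is left out. These falls thus follow in part from the limits. The mirror count of 112, also added after seeing the data, was 145 with equal lists, 67 with that score minimum, 194 with only IG and TG lists cut and 19 with all 4 against 0, and 79 to 132 without 1 kidney. Of the 284 loci, 80, 23 and 111 still met the rule under the equal, median and IG and TG cuts. The score difference kept its sign under all alternatives run, between -129 and -138 without 1 kidney and -248 with that score minimum, and it was -0.57 on mean log10 scores. The share with all 4 controls was 34.5% and 43.0% with that score minimum. The CDS share was 57.6% with codon segments of 100 nt and 43.5% with codon-holding loci given to the codon, and the 3′ UTR share then 2.95%. The other loci of these genes had a TG minus IG share of -6.08 percentage points and 0.384 with equal lists. Of 73 named loci, 27 moved across the limit of 3 kidneys with equal lists and 52 with that score minimum, where Celsr1 reversed to -1. Depth is unknown, so a missing peak may be a weak one. No paired analysis was possible because the labels tie no replicate number to a shared litter, batch or day, the group contrasts that chose the loci carry no test, and the only test already takes its differences inside each kidney.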
